A study of Mus musculus with 36 samples.

Results

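The genes described here are the 44 protein-coding collagen genes of the mouse, taken as every protein-coding symbol of the form Col, number, a, number among 46078 counted genes, of which 22159 are protein-coding. They were sorted by textbook class into 11 fibrillar collagens, 8 basement membrane collagens (the chains of type IV and types XV and XVIII) and 25 others. RNA was measured in RM-1-BM, a mouse prostate cancer line transduced with the F133V mutant of SPOP or with an empty vector, and in RAW264.7, a mouse macrophage line. SPOP is the substrate adaptor of a ubiquitin ligase and is recurrently mutated in prostate cancer. The cancer cells form 8 groups of 3 libraries: F133V cells in coculture with olaparib, in coculture with DMSO, alone with olaparib and alone with DMSO, then vector cells in the same 4 settings. Olaparib inhibits PARP enzymes and DMSO is its vehicle. In coculture the cancer cells faced the macrophages across a transwell membrane. The macrophages form 4 groups of 3 libraries, with F133V or vector partners and olaparib or DMSO, and no group of macrophages grown alone enters the comparisons. Whether the 3 libraries in a group are separate cultures is not stated in the labels; p-values then reflect only how far these libraries spread, which may be technical. Nor do the labels say whether each transduced line is a pool or a single clone, so differences by genotype compare one transduced line with the other.

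Collagens are trimers of chains wound into a triple helix. Fibrillar collagens assemble into the fibrils of connective tissue, type IV collagen builds the network of basement membranes, and type VI collagen forms beaded filaments that link cells to the matrix around them. The FACIT collagens sit on the surface of other fibrils, type VII anchors epithelia, and type XVIII carries the fragment endostatin at its end. In carcinomas most fibrillar collagen is made by stromal fibroblasts, while tumour cells often make basement membrane chains.

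Libraries held between 30292309 and 43062440 counts in genes. Spop itself averaged 96.8 to 114 CPM over the 4 F133V groups and 111 to 125 CPM over the 4 vector groups, a gene count that does not read the F133V change. CPM here is the usual depth-scaled count, with library sizes scaled by TMM. Of 12 epithelial and prostate markers, 2 reached a mean of 1 CPM in F133V cancer libraries and 3 in vector ones, with a summed level of 65 to 394 CPM and 92.1 to 182 CPM. Krt8, a keratin of simple epithelia, averaged at most 0.38 CPM in any F133V group and 15.4 to 31.4 CPM in the vector groups. The summed epithelial markers did not follow Krt8 in cocultures, with means of 379 CPM in F133V and 122 CPM in vector cells with DMSO. With olaparib those means were 126 and 95.7 CPM. In cells alone they were 103 and 142 CPM with DMSO and 67.4 and 181 CPM with olaparib. Of 10 fibroblast and stromal markers, 4 in F133V and 6 in vector libraries reached 1 CPM, with sums of 148 to 241 CPM and 324 to 418 CPM. Among them Pdgfrb, a receptor of mesenchymal cells, averaged 105 to 129 CPM in F133V groups and 105 to 148 CPM in vector groups. The decorin gene Dcn averaged 37.8 to 99.1 CPM in F133V groups and 151 to 286 CPM in vector groups. Sums over these markers can thus rest on few genes. Of the 10, Thy1 and Postn were at 0 in all 4 F133V groups and in 3 of the 4 vector groups, and Postn was also at 0 in vector cells alone with DMSO. Macrophage markers summed to 12.8 to 16.6 CPM in F133V and 20.7 to 29.2 CPM in vector libraries, against at least 11087 CPM in macrophage libraries. Vector libraries 1 and 2 grown alone with DMSO stood apart with 134 and 181 counts of the macrophage gene Lyz2, against 27 in library 3 of that group. The part of the epithelial and macrophage transcripts in the results on collagens was not tested. In bulk RNA, fewer cells of a type and less RNA per cell cannot be told apart.

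Of the 44 genes, 14 reached a mean of at least 10 CPM in some cancer group, 5 lay between 1 and 10 CPM, and 25 stayed under 1 CPM in all 8. Of the 14, 3 were fibrillar (Col3a1, Col5a1, Col11a2), 4 belonged to the basement membrane (Col18a1, Col4a1, Col4a2, Col4a5) and 7 were others (Col6a1, Col6a2, Col6a3, Col7a1, Col9a3, Col16a1, Col20a1). The type I chains Col1a1 and Col1a2, the main fibrils of bone and skin, were near absent, with group means of at most 0.441 CPM and 0.352 CPM. Col5a2, the usual partner chain of Col5a1, stayed at or under 0.154 CPM although it lies beside Col3a1 on chromosome 1, tail to tail, with 24614 bases between them. Col13a1 had 0 counts in all 24 cancer libraries, and Col6a6 and Col19a1 had 1 count each. The others under 1 CPM were Col2a1, Col4a3, Col4a4, Col4a6, Col5a3, Col6a4, Col6a5, Col8a2, Col9a1, Col9a2, Col10a1, Col11a1, Col15a1, Col17a1, Col22a1, Col25a1, Col26a1, Col27a1 and Col28a1. The filter on low counts left 28 of the 44 for testing in cancer cells, namely 8 fibrillar, 6 basement membrane and 14 other genes, and 13 in macrophages. A gene could pass it through its highest group alone, so the counts below describe the genes tested and not all 44.

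**Figure D1:**
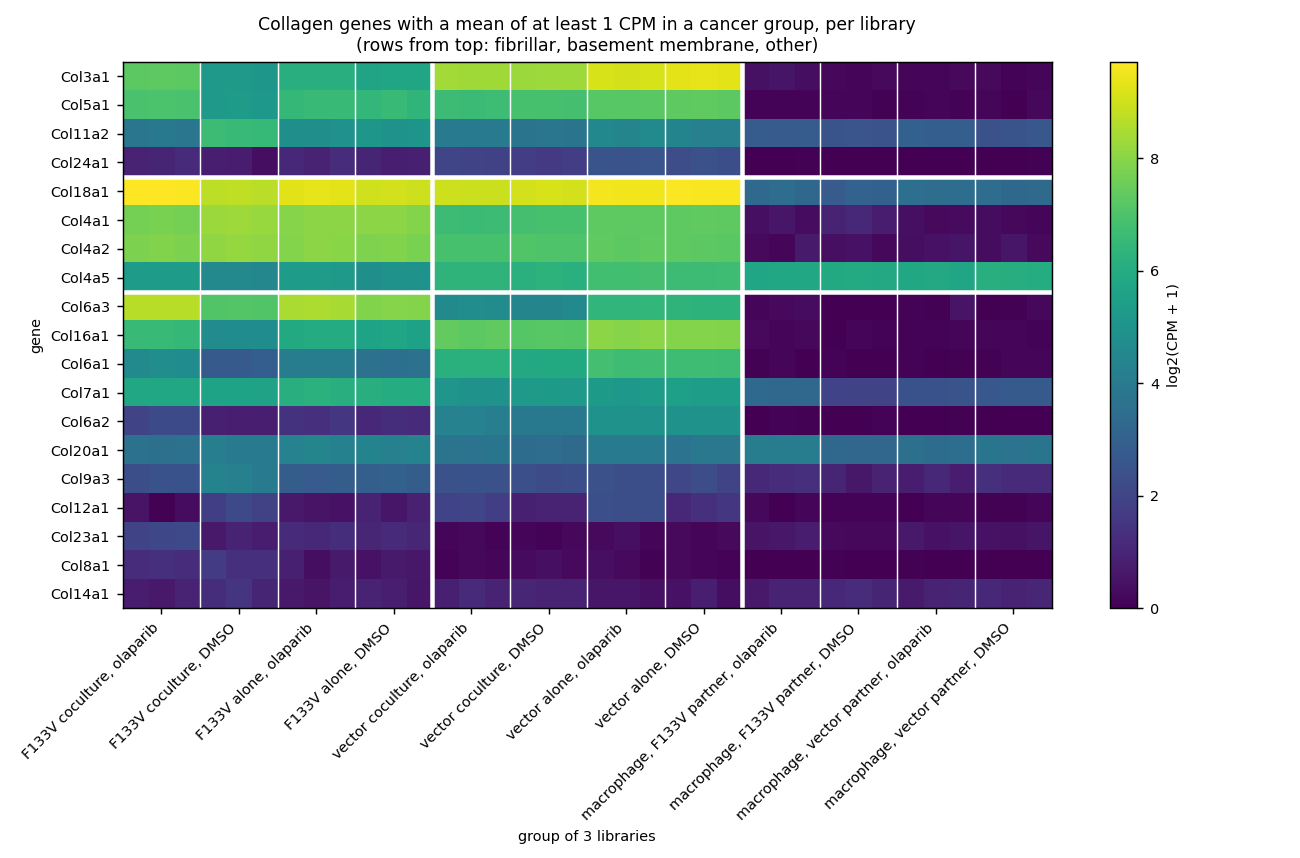
Level of the 19 collagens that averaged 1 CPM or more in some cancer group, as log2(CPM + 1), in each of the 36 libraries (columns, in groups of 3; rows ordered as fibrillar, basement membrane and other). The 3 libraries of a group look alike, Col6a3 is bright in F133V columns where Col6a1 and Col6a2 are dark, and Col4a5 is the brightest row in macrophages.

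Per kilobase of exon (the union of exons of all annotated transcripts), Col18a1 held the first rank in all 8 cancer groups, between 61.1 CPM per kb in F133V cocultures with DMSO and 118 CPM per kb in F133V cocultures with olaparib. Behind it the order differed by genotype. In all 4 F133V groups Col4a2 came next, at 34 to 41.9 CPM per kb, while in all 4 vector groups it was Col3a1, at 31.6 to 65.2 CPM per kb, followed by Col16a1. In F133V cocultures with olaparib Col4a2 and Col6a3 (34 and 33.9 CPM per kb) stood side by side and did not differ in rank beyond rounding. Summed per kb, basement membrane collagens made up 66% to 74.2% of the collagen level in F133V groups and 51.2% to 57.2% in vector groups. The larger share was not a higher sum in cells alone, with 146 CPM per kb in F133V and 173 in vector cells with DMSO. Alone with olaparib the sums were 169 and 167 CPM per kb. In coculture F133V cells were higher, with 147 against 123 CPM per kb with DMSO and 186 against 113 with olaparib. Fibrillar collagens made up 8.95% to 11.5% in F133V groups and 22% to 25.9% in vector groups. Alone with DMSO, the fibrillar sums per kb were 20.5, 20.8 and 19.7 in F133V cells, against 87.6, 88.1 and 85.5 in vector cells. In cocultures with olaparib they were 32.1, 33.1 and 32.1 in F133V cells, against 48.4, 46.9 and 47.5 in vector cells. Every F133V library thus lay below every vector library in the fibrillar sum, the lowest vector library having 46.9 CPM per kb. Much of that sum was Col3a1, at 65.2 of a mean of 87.1 CPM per kb in vector cells alone with DMSO. In vector cocultures with DMSO it was 31.6 of 47.4 CPM per kb. The order did not hold for each fibrillar gene, since Col11a2 was called higher in F133V cells in 3 of 4 settings. All 44 genes together came to 1594 ± 44.9 CPM in F133V cells and 2540 ± 31.1 CPM in vector cells alone with DMSO. Alone with olaparib they came to 1903 ± 46.1 and 2433 ± 24.5 CPM, and in coculture with DMSO to 1459 ± 32.5 and 1595 ± 23.4 CPM. In coculture with olaparib F133V cells had the higher sum, 2196 ± 30.3 CPM against 1560 ± 13.5 CPM (SD, n = 3 each).

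**Figure D2:**
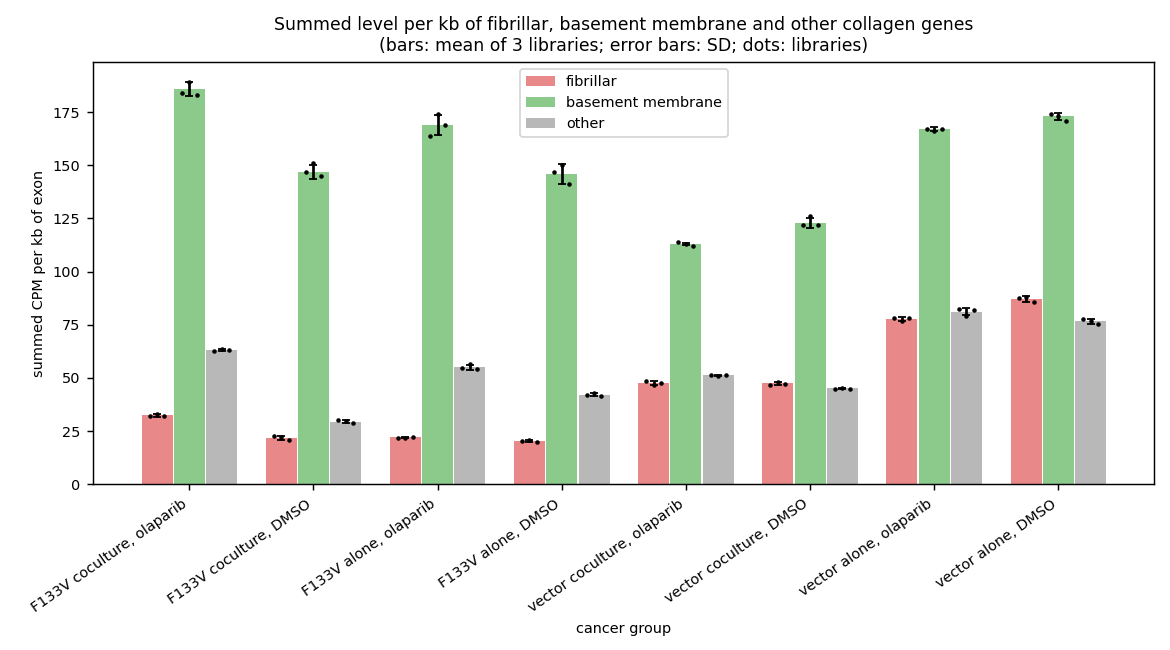
Summed CPM per kb of exon of fibrillar, basement membrane and other collagen genes in the 8 cancer groups (bars, mean of 3 libraries; error bars, SD; dots, libraries). The fibrillar bar is at most 33.1 in any F133V library and at least 46.9 in any vector library, while the basement membrane bar is the tallest in every group.

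The first comparison set F133V cells against vector cells, in 4 settings that share no library. In F133V cells the fibril chain Col3a1, the type VI chains Col6a1 and Col6a2, the FACIT collagen Col16a1 and the basement membrane chain Col4a5 fell in all 4 settings, while Col4a1, Col4a2, Col6a3 and Col7a1 rose in all 4. Of the 28 genes tested, 24 passed alone with DMSO (12 higher, 12 lower; of all 15962 genes tested 67.7% passed, 33.7% higher and 34% lower), 25 alone with olaparib (13 and 12; 67.4%, 34.3% and 33.2%), 23 in coculture with DMSO (13 and 10; 79.5%, 37.4% and 42%) and 21 in coculture with olaparib (10 and 11; 60%, 28.8% and 31.2%). The threshold was an adjusted p of 0.05 in edgeR's quasi-likelihood test. The count in coculture with DMSO was close to the share of all genes, those in the other settings lay above it, and about as many collagens rose as fell. The median log2 difference of the 8 fibrillar genes tested was -0.71 alone with DMSO and -0.41 in coculture with DMSO, and that of the 6 basement membrane genes was 0.61 and 1.10, while the medians of all genes tested were 0.00 and -0.06. These medians include genes under 1 CPM, namely Col4a3 and Col4a4, and Col1a1, Col1a2, Col2a1 and Col5a3 among fibrillar genes. The 4 basement membrane genes of at least 10 CPM split in both DMSO settings, with Col4a1 and Col4a2 higher and Col4a5 and Col18a1 lower. In all, 8 genes were higher in each setting (with Col4a3, Col4a4, Col8a1 and Col23a1 beside the 4 above), 7 lower (with Col24a1 and Col25a1), and 5 changed in both directions by setting (Col5a1, Col11a2, Col12a1, Col18a1 and Col20a1). The share of all genes tested with the same patterns was not counted, so these counts are not read as particular to collagens. Low genes such as Col4a3, Col8a1, Col23a1 and Col25a1 could pass the filter through their higher genotype alone. The lower call of Col20a1, in coculture with olaparib (-0.17, adjusted p = 0.022), was lost with no filter, in DESeq2, with length and GC trends removed and without any 1 of 4 libraries, with adjusted p of 0.051 to 0.082. Without vector libraries 1 and 2 of cells alone with DMSO, 24 genes of 29 tested passed in that setting (55.3% of all genes tested).

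Among fibrillar collagens, Col3a1 (chr1:45311538-45349706, plus strand of GRCm38, as are all coordinates here) makes the fibrils of type III collagen, found in soft and healing tissues. It had 50.5, 52.5 and 52.4 CPM in F133V cells alone with DMSO, against 641, 648 and 630 CPM in vector cells alone with DMSO. With DMSO in coculture it had 36.2, 36.7 and 34.2 CPM in F133V cells, against 305, 315 and 309 CPM in vector cells. The groups did not overlap in either setting, and the log2 differences were -3.63 ± 0.03 (SE; adjusted p = 2.0e-47) and -3.12 ± 0.03 (adjusted p = 2.6e-44). With olaparib they were -3.04 ± 0.03 alone and -1.07 ± 0.02 in coculture. Its exons share 141 of 9816 bases with a neighbouring model on the same strand. The summed fibroblast markers were also lower in F133V libraries (148 to 241 CPM, against 324 to 418 CPM), and their part in this difference was not tested. Pdgfrb among them differed less by genotype, with group means of 105 to 129 CPM against 105 to 148 CPM. The 250 bases before its start in RefSeq (GRCm38.p6, plus strand) are shown because this gene had the highest level of the fibrillar class in vector cells and the largest difference by genotype within it. Capitals mark its 1 match to TATAAA, which begins 117 bases before the start.

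Col3a1 chr1:45311288-45311537: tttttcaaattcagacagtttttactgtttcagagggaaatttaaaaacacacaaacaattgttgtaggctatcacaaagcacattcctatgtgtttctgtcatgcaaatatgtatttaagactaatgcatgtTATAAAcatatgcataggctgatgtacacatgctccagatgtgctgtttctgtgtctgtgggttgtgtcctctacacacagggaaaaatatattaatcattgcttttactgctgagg

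Col5a1 (chr2:27886425-28039514, plus strand) makes type V collagen, which sits inside fibrils and limits their width. It had 85, 91.7 and 81 CPM in F133V cells alone with DMSO, against 159, 160 and 153 CPM in vector cells. In coculture with DMSO it had 36, 39.9 and 35.7 CPM in F133V cells, against 116, 117 and 115 CPM in vector cells. F133V cells were thus lower in both settings without overlap, by -0.87 ± 0.03 and -1.64 ± 0.04 on the log2 scale (adjusted p = 5.3e-24 and 1.7e-31). In coculture with olaparib the direction was the other one, with 122, 125 and 122 CPM in F133V cells and 100, 98.2 and 102 CPM in vector cells (log2 difference 0.30 ± 0.03, adjusted p = 3.1e-10).

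Col11a2 (chr17:34039437-34066685, plus strand) is a fibrillar chain best known from cartilage. It had 34.5, 30.7 and 31.3 CPM in F133V cells alone with DMSO, against 20.1, 18 and 18 CPM in vector cells. In coculture with DMSO it had 100, 92.2 and 90.2 CPM in F133V cells, against 12.3, 12.9 and 12.4 CPM in vector cells, the largest rise by genotype among the 14 genes in that setting (log2 difference 2.91 ± 0.05, adjusted p = 3.0e-35). With olaparib the same coculture pair had 12.9, 14.2 and 13.2 CPM in F133V cells and 15.1, 14.7 and 15.6 CPM in vector cells, a small difference (-0.17 ± 0.06, adjusted p = 0.019) whose adjusted p reached 0.071 to 0.089 without either of 2 F133V libraries or 1 vector library. Col24a1, a minor fibrillar chain, was lower throughout, for example 0.858 ± 0.112 CPM in F133V cells alone with DMSO and 4.08 ± 0.212 CPM in vector cells (SD, n = 3 each; log2 difference -2.25 ± 0.17, adjusted p = 5.6e-15). Among the fibrillar genes under 1 CPM, Col1a1 was higher and Col5a3 lower in F133V cells alone with DMSO (1.39 ± 0.43 and -1.98 ± 0.60), and Col1a2 and Col2a1 did not pass there (0.85 ± 0.45 and -0.56 ± 0.54).

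In the basement membrane class the chains of the main type IV network, Col4a1 and Col4a2, were higher in F133V cells in every setting. The genes are transcribed away from each other on chromosome 8 and their first exons overlap by 22 bases, a pair known to share a bidirectional promoter. These 22 bases of RefSeq (GRCm38.p6, plus strand) are shown as the place where both transcripts begin, and capitals mark a match to the GC box GGGCGG.

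Col4a2 and Col4a1 chr8:11312805-11312826: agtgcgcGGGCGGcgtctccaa

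Col4a1 (chr8:11198423-11312826, minus strand) had 257, 257 and 241 CPM in F133V cells alone with DMSO, against 159, 162 and 156 CPM in vector cells. In coculture with DMSO it had 304, 314 and 300 CPM in F133V cells, against 113, 118 and 118 CPM in vector cells. Col4a2 (chr8:11312805-11449287, plus strand) had 276, 286 and 271 CPM in F133V cells in that coculture, against 134, 132 and 130 CPM in vector cells. F133V and vector libraries did not overlap for either gene in any setting, and log2 differences ran from 0.66 ± 0.03 to 1.39 ± 0.03 for Col4a1 and from 0.56 ± 0.03 to 1.07 ± 0.03 for Col4a2. Per kb of exon, Col4a1 stood at 0.978 ± 0.00397 of Col4a2 in F133V cocultures with DMSO and at 0.781 ± 0.0279 in vector cocultures with DMSO (SD, n = 3 each).

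Col4a5 (chrX:141475385-141689234, plus strand), the type IV chain of the network mutated in Alport syndrome, went the other way. It had 27.7, 30.1 and 29.7 CPM in F133V cells alone with DMSO, against 99.7, 101 and 104 CPM in vector cells (log2 difference -1.80 ± 0.04, adjusted p = 1.3e-32). With DMSO in coculture it had 23.1, 22.9 and 21.3 CPM in F133V cells, against 70.9, 75.9 and 71.2 CPM in vector cells. Relative to Col4a1 per kb it stood at 0.129 ± 0.00861 in F133V cells alone with DMSO and at 0.711 ± 0.029 in vector cells (SD, n = 3 each). Its head to head neighbour Col4a6, whose start lies 1308 bases away, stayed at or under 0.042 CPM in every cancer group. The other pair of that network, Col4a3 and Col4a4, was low but higher in F133V cells in all 4 settings: Col4a4 averaged 0.618 ± 0.131 CPM in F133V cells alone with DMSO and 0.343 ± 0.0578 CPM in vector cells (log2 difference 0.85 ± 0.31, adjusted p = 0.016).

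Col18a1 (chr10:77052178-77166548, minus strand), the heparan sulphate collagen of basement membranes and the collagen gene with the most counts, differed in direction by setting. It had 521, 534 and 503 CPM in F133V cells alone with DMSO, against 802, 795 and 784 CPM in vector cells (log2 difference -0.61 ± 0.02). Cocultured with DMSO it had 429, 436 and 422 CPM in F133V cells, against 535, 553 and 532 CPM in vector cells (-0.33 ± 0.02). In coculture with olaparib F133V cells were higher, with 821, 840 and 818 CPM, against 499, 494 and 491 CPM in vector cells (0.74 ± 0.02, adjusted p = 1.1e-26). No pair of groups overlapped.

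The 3 chains of type VI collagen, which are thought to assemble into one heterotrimer, moved apart by genotype. Col6a3 (chr1:90765923-90843971, minus strand) had 233, 248 and 239 CPM in F133V cells alone with DMSO, against 78.8, 77 and 76.7 CPM in vector cells. Col6a1 (chr10:76708792-76726168, minus strand) had 11.2, 10.7 and 11.2 CPM in the same F133V cells, against 104, 104 and 99.8 CPM in vector cells. Col6a2 (chr10:76595762-76623630, minus strand) had 1.19, 1.39 and 1.29 CPM in F133V cells, against 30.6, 30.9 and 30.2 CPM in vector cells. Col6a3 was thus higher in F133V cells by 1.63 ± 0.03 on the log2 scale (adjusted p = 2.4e-34), and its partners were lower by -3.22 ± 0.04 and -4.56 ± 0.08 (adjusted p = 3.5e-40 and 1.0e-34), with no overlap of libraries for any of the 3. In coculture with DMSO the differences were 2.66 ± 0.04, -3.29 ± 0.05 and -4.18 ± 0.11 for Col6a3, Col6a1 and Col6a2. In coculture with olaparib they were 4.01 ± 0.03, -1.51 ± 0.03 and -2.44 ± 0.07, the first from 406, 404 and 407 CPM in F133V cells against 24.3, 26.2 and 25.1 CPM in vector cells. Per kb, Col6a3 stood at 7.99 ± 0.455 times Col6a1 in F133V cells alone with DMSO and at 0.277 ± 0.00458 times in vector cells (SD, n = 3 each).

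Col6a1 and Col6a2 are neighbours on chromosome 10, on the same strand with 85161 bases between them, and Col6a3 lies on chromosome 1. The RefSeq bases before each start are shown because these chains of one trimer differed in direction. All 3 genes lie on the minus strand and the letters read 5′ to 3′ on it. For Col6a1 only 126 bases before the start in both annotations are given, since GENCODE places its start 124 bases upstream of the RefSeq start. Capitals mark matches on either strand to the TATA box, CCAAT box, GC box and AP-1 motifs spelled out in the next paragraph.

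Col6a1 chr10:76726169-76726294: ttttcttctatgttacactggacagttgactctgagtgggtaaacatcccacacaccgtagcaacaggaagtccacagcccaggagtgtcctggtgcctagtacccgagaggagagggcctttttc
Col6a2 chr10:76623631-76623880: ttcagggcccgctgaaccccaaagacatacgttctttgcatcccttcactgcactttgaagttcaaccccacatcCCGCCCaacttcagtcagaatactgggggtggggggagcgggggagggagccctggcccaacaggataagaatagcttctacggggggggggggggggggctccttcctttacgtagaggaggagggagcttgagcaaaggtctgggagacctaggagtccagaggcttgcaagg
Col6a3 chr1:90843972-90844221: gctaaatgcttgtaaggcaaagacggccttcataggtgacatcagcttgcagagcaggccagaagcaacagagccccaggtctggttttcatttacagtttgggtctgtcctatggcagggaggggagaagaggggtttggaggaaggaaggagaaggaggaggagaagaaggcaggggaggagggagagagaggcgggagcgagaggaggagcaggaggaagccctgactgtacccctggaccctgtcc

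Over the 35 collagen genes with a RefSeq promoter, the GC box GGGCGG was found in 21 (32.7% of all 32851 promoters of this length hold it) and the CCAAT box in 12 (33.8%). The TATA box TATAAA was found in 5 (12.4%) and the AP-1 motif TGANTCA in 1 (6.75%), the last in Col6a1, 90 bases before its RefSeq start and so inside the first exon of the GENCODE model. Both strands were searched, and no motif contains another. These are matches of letters only, and no match says only that the letters are not in this window.

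Among the remaining collagens, Col16a1 (chr4:130047840-130099283, plus strand), a FACIT collagen, had 48.4, 52 and 46.7 CPM in F133V cells alone with DMSO, against 242, 237 and 234 CPM in vector cells (log2 difference -2.28 ± 0.03, adjusted p = 4.4e-38). Cocultured with DMSO it had 24.5, 25.3 and 25.3 CPM in F133V cells, against 142, 147 and 143 CPM in vector cells. Col7a1 (chr9:108953586-108984875, plus strand), the anchoring fibril collagen, was moderately higher, with 67.4, 63.5 and 63.4 CPM in F133V cells alone with DMSO and 44.2, 42.8 and 42.4 CPM in vector cells (0.59 ± 0.04, adjusted p = 3.2e-16). Neither gene showed overlap between genotypes in these settings. Col9a3 (chr2:180597790-180622189, plus strand), a chain of the cartilage FACIT type IX, had 19.5, 17.8 and 15.2 CPM in F133V cocultures with DMSO, against 4.2, 3.64 and 4.07 CPM in vector cocultures with DMSO (2.15 ± 0.09, adjusted p = 3.0e-23). Its exons share 234 of 3853 bases with Tcfl5 on the other strand, and reads there cannot be assigned without the strand setting. Col20a1 (chr2:180986535-181018363, plus strand), another FACIT collagen, had 16.9, 15.3 and 15 CPM in F133V cocultures with DMSO, against 9.78, 10.2 and 9.23 CPM in vector cocultures (0.69 ± 0.06).

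Genes between 1 and 10 CPM showed large ratios on small counts. Col23a1, a transmembrane collagen, averaged 3.27 ± 0.235 CPM in F133V cocultures with olaparib and 0.106 ± 0.0524 CPM in vector cocultures with olaparib (log2 difference 4.90 ± 0.29, adjusted p = 5.9e-18). Col8a1, a short-chain network collagen of vessels and cornea, averaged 1.75 ± 0.484 CPM in F133V cocultures with DMSO and 0.234 ± 0.0822 CPM in vector ones (2.86 ± 0.33). Col12a1, a FACIT collagen of stressed tissues, was lower in F133V cells alone with olaparib (0.465 ± 0.112 and 4.07 ± 0.137 CPM; -3.11 ± 0.24) and higher in coculture with DMSO (2.9 ± 0.496 and 0.869 ± 0.0488 CPM; 1.74 ± 0.22; SD, n = 3 each). Col14a1 passed in coculture with DMSO alone (0.54 ± 0.25, adjusted p = 0.048), with overlapping libraries. Col25a1 had 1 count over the 12 F133V libraries, against 10 to 19 counts in each vector library alone with DMSO.

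**Figure D3:**
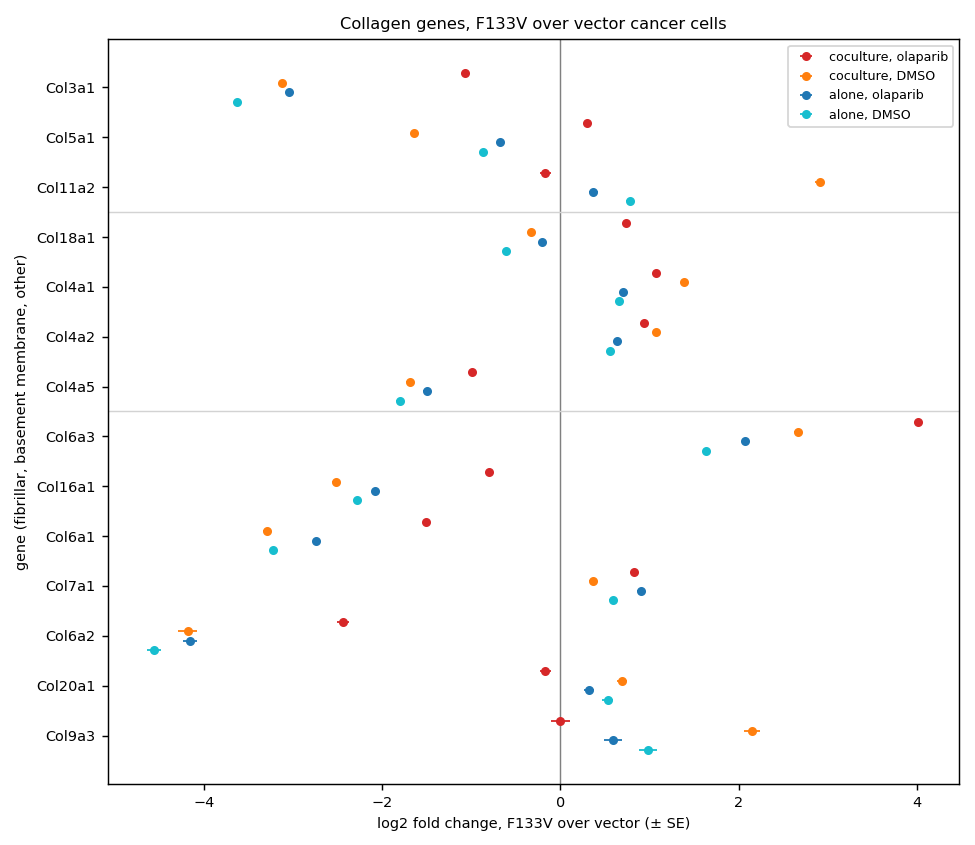
Log2 fold change of F133V over vector cells, ± SE, of the 14 collagens that averaged 10 CPM or more in some cancer group, in 4 settings that share no library (rows from top: fibrillar, basement membrane, other). Col6a3, Col4a1, Col4a2 and Col7a1 lie right of 0 in all 4, Col3a1, Col4a5, Col16a1, Col6a1 and Col6a2 lie left of 0 in all 4, and Col5a1, Col11a2, Col18a1 and Col20a1 cross 0.

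The second comparison set olaparib against DMSO. In F133V cocultures olaparib was accompanied by a broad change: Col3a1, Col5a1, Col16a1 and all 3 type VI chains rose by 1.59 to 2.11 on the log2 scale, and Col11a2, Col9a3 and Col12a1 fell by 2.02 to 3.62. Scaling by library size alone moved the median of all genes in that pair by 0.206, so that changes of that size depend on the scaling. The summed epithelial markers were 124 to 129 CPM with olaparib in F133V cocultures, against 367 to 394 CPM with DMSO. The summed fibroblast markers were 236 to 241 CPM with olaparib there, against 148 CPM in each library with DMSO. Pdgfrb among them averaged 125 CPM with olaparib and 105 CPM with DMSO, and the decorin gene Dcn 99.1 and 37.8 CPM. The part of either marker sum in these changes was not tested. In F133V cells, 21 of 28 genes tested passed in coculture (12 higher, 9 lower; 76.3% of all genes tested, 39.3% higher and 37% lower) and 11 alone (10 and 1; 36.2%, 18.2% and 17.9%). In vector cells 14 passed in coculture (9 and 5; 23.6%, 12.6% and 10.9%) and 12 alone (7 and 5; 30.4%, 15.3% and 15.1%). The collagen count lay above the share of all genes in vector cells and near it in F133V cells. Without vector libraries 1 and 2 of cells alone with DMSO, the last count was 8 (6 higher, 2 lower; 17.5% of all genes tested), and Col18a1, Col20a1, Col5a1 and Col4a5 then missed the threshold with adjusted p of 0.053, 0.16, 0.44 and 0.25. Among genes under 1 CPM, Col17a1 rose and Col2a1 and Col22a1 fell in F133V cocultures. The 14 genes of at least 10 CPM all passed in F133V cocultures, 9 higher and 5 lower, with a median of 0.88 against 0.02 over all genes tested. Those 14 were chosen by their highest cancer group, which could be 1 of the groups compared. Over all 28 collagens tested the median was 0.20, or 0.51 with a floor of 3 counts for groups at 0.

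In F133V cocultures Col3a1 had 153, 159 and 153 CPM with olaparib, against 36.2, 36.7 and 34.2 CPM with DMSO (log2 fold change 2.11 ± 0.03, adjusted p = 2.1e-38). Alone, F133V cells had 67, 68.1 and 66.6 CPM with olaparib, against 50.5, 52.5 and 52.4 CPM with DMSO (0.38 ± 0.03). Vector cells alone went the other way, with 559, 549 and 556 CPM with olaparib and 641, 648 and 630 CPM with DMSO (-0.21 ± 0.02, adjusted p = 9.1e-10). The groups of each pair were apart, yet even the raised F133V cocultures stayed below every vector library.

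For Col5a1 the F133V cocultures had 122, 125 and 122 CPM with olaparib, against 36, 39.9 and 35.7 CPM with DMSO (1.72 ± 0.04, adjusted p = 4.1e-32). Alone, its change in F133V cells was 0.09 ± 0.03 with overlapping groups, and the adjusted p of 0.048 moved to between 0.056 and 0.34 without any 1 of 4 libraries. Col11a2 fell in F133V cocultures to 12.9, 14.2 and 13.2 CPM with olaparib, against 100, 92.2 and 90.2 CPM with DMSO (-2.81 ± 0.05, adjusted p = 9.5e-35). In vector cocultures it had 15.1, 14.7 and 15.6 CPM with olaparib, against 12.3, 12.9 and 12.4 CPM with DMSO (0.27 ± 0.06). With olaparib the Col11a2 libraries of both genotypes in coculture thus came to lie within a narrow range of 12.9 to 15.6 CPM.

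In the basement membrane class Col18a1 rose in F133V cocultures, with 821, 840 and 818 CPM with olaparib and 429, 436 and 422 CPM with DMSO (0.95 ± 0.02, adjusted p = 1.6e-30). Col4a5 rose there as well, with 40.1, 39.8 and 38.9 CPM with olaparib and 23.1, 22.9 and 21.3 CPM with DMSO (0.82 ± 0.04). Col4a1 fell, with 204, 215 and 204 CPM with olaparib and 304, 314 and 300 CPM with DMSO (-0.56 ± 0.03), and Col4a2 fell less, with 222, 231 and 223 CPM with olaparib and 276, 286 and 271 CPM with DMSO (-0.30 ± 0.03). The head to head pair thus kept 1 direction but unequal size, and Col4a1 stood at 0.817 ± 0.00773 of Col4a2 per kb with olaparib and at 0.978 ± 0.00397 with DMSO (SD, n = 3 each). In vector cocultures both fell slightly (-0.23 ± 0.03 and -0.17 ± 0.03).

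The 3 type VI chains rose together with olaparib in F133V cocultures although they differed by genotype. Col6a3 averaged 406 ± 1.46 CPM with olaparib (lowest 404) and 135 ± 3.07 CPM with DMSO (highest 138; SD, n = 3 each). Col6a1 had 24.2, 25.8 and 25.4 CPM with olaparib, against 5.78, 5.76 and 6.41 CPM with DMSO. Col6a2 had 2.93, 3.48 and 3.5 CPM with olaparib, against 0.808, 0.779 and 0.748 CPM with DMSO. The log2 fold changes were 1.59 ± 0.03, 2.08 ± 0.05 and 2.08 ± 0.14, with no overlap between treatments. In vector cocultures the same chains rose by 0.24 ± 0.05, 0.29 ± 0.03 and 0.35 ± 0.06. In vector cells alone, Col6a3 rose by 0.12 ± 0.03, while Col6a1 and Col6a2 had 0.06 ± 0.03 and -0.03 ± 0.05 and did not pass.

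Of the others, Col16a1 had 92.2, 93.6 and 88 CPM with olaparib in F133V cocultures, against 24.5, 25.3 and 25.3 CPM with DMSO (1.87 ± 0.04). Col9a3 had 4.09, 4.42 and 4.47 CPM with olaparib there, against 19.5, 17.8 and 15.2 CPM with DMSO (-2.02 ± 0.09). Col20a1 had 11.2, 10.9 and 11.2 CPM with olaparib there, against 16.9, 15.3 and 15 CPM with DMSO (-0.51 ± 0.06), while in vector cocultures it had 12.5, 12.1 and 12.8 CPM with olaparib and 9.78, 10.2 and 9.23 CPM with DMSO (0.35 ± 0.07). Col7a1 moved little in any pair, by -0.26 ± 0.04 to 0.21 ± 0.04. Col12a1 went to 0.239 ± 0.191 CPM with olaparib in F133V cocultures, against 2.9 ± 0.496 CPM with DMSO (-3.62 ± 0.29), but to 2.78 ± 0.382 CPM with olaparib in vector cocultures, against 0.869 ± 0.0488 CPM with DMSO (1.67 ± 0.22). The opposite directions of Col12a1 were tested as a difference, -5.29 ± 0.36 on the log2 scale (adjusted p = 5.8e-16), the largest in size among the 28 genes.

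**Figure D4:**
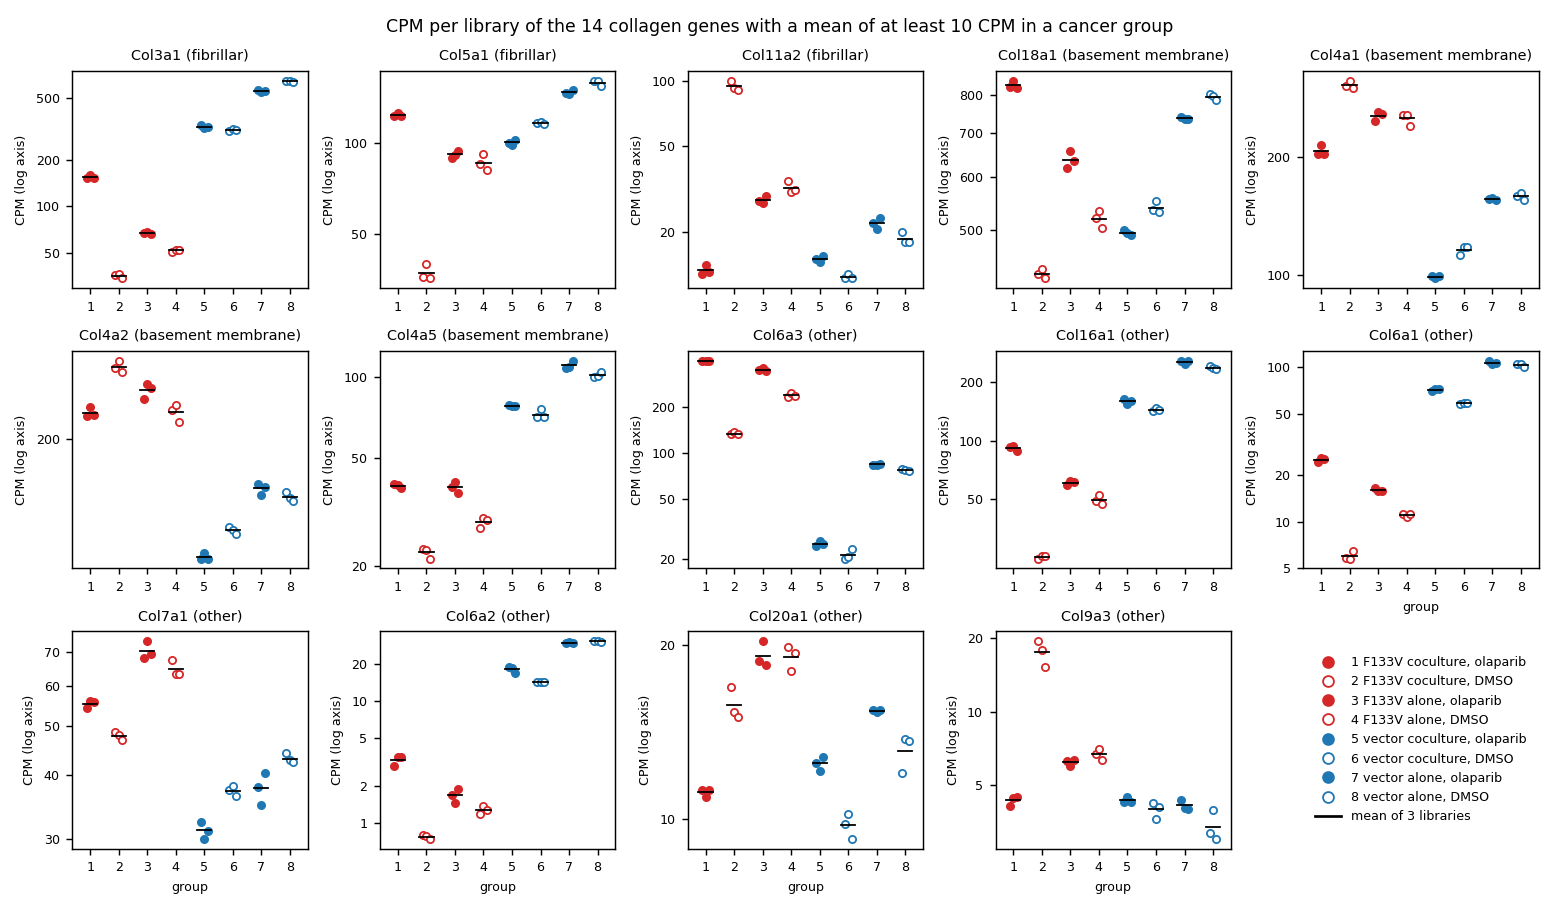
CPM per library (log axis, each panel with its own range) of the 14 collagens that averaged 10 CPM or more in some cancer group, in the 8 cancer groups (red, F133V; blue, vector; filled, olaparib; open, DMSO; black line, mean of 3). In F133V cocultures, Col3a1, Col5a1, Col16a1 and the type VI chains are high with olaparib and low with DMSO, and Col11a2, Col9a3, Col4a1 and Col4a2 are the reverse.

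The third comparison set cocultured cancer cells against cells grown alone. In vector cells nearly all collagens that changed were lower in coculture. With DMSO 18 of 28 genes passed, 1 higher and 17 lower (42% of all genes tested passed in either direction, 23.4% higher and 18.6% lower). With olaparib the counts were again 18, with 1 higher and 17 lower (44.1% of all genes tested, 25.5% and 18.5%). The 1 higher gene was Col14a1 in both. The median over the 28 was -0.55 in both, against 0.00 over all genes tested. Col6a3 had the steepest fall among the 14 genes, to 20.2, 20.6 and 23.3 CPM in vector cocultures with DMSO, against 78.8, 77 and 76.7 CPM in vector cells alone (-1.86 ± 0.04, adjusted p = 1.1e-31). Col3a1 had 305, 315 and 309 CPM in those cocultures, against 641, 648 and 630 CPM alone (-1.05 ± 0.02), and Col18a1 had 535, 553 and 532 CPM, against 802, 795 and 784 CPM alone (-0.56 ± 0.02). All 44 genes summed to 1595 ± 23.4 CPM in vector cocultures with DMSO and 2540 ± 31.1 CPM in vector cells alone (SD, n = 3 each). Without vector libraries 1 and 2 of cells alone with DMSO, 17 genes passed, 1 higher and 16 lower (28.2% of all genes tested).

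In F133V cells the changes in coculture went both ways. With DMSO 21 of 28 passed, 8 higher and 13 lower (70.3% of all genes tested, 35.6% and 34.8%), and with olaparib 17 passed, 9 higher and 8 lower (53.2%, 26.7% and 26.5%). The summed epithelial markers were 367 to 394 CPM in F133V cocultures with DMSO, against 101 to 105 CPM in F133V cells alone with DMSO. With DMSO, Col11a2 rose to 100, 92.2 and 90.2 CPM in coculture, against 34.5, 30.7 and 31.3 CPM alone (1.55 ± 0.05, adjusted p = 1.5e-27), and Col9a3 to 19.5, 17.8 and 15.2 CPM, against 6.68, 7.01 and 6.3 CPM alone (1.40 ± 0.08). Col4a1 and Col4a2 rose slightly (0.28 ± 0.03 and 0.30 ± 0.03). Col5a1 fell by 1.21 ± 0.04, to 36, 39.9 and 35.7 CPM in coculture, against 85, 91.7 and 81 CPM alone. Col1a1, at 0.0292 ± 0.03 CPM in coculture and 0.441 ± 0.0338 CPM alone (SD, n = 3 each), fell on few counts (-3.70 ± 0.64). With olaparib several directions were the other way round: Col3a1 rose in coculture by 1.20 ± 0.03, Col5a1 by 0.43 ± 0.03 and Col16a1 by 0.59 ± 0.03, and Col11a2 fell by 1.07 ± 0.06.

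**Figure D5:**
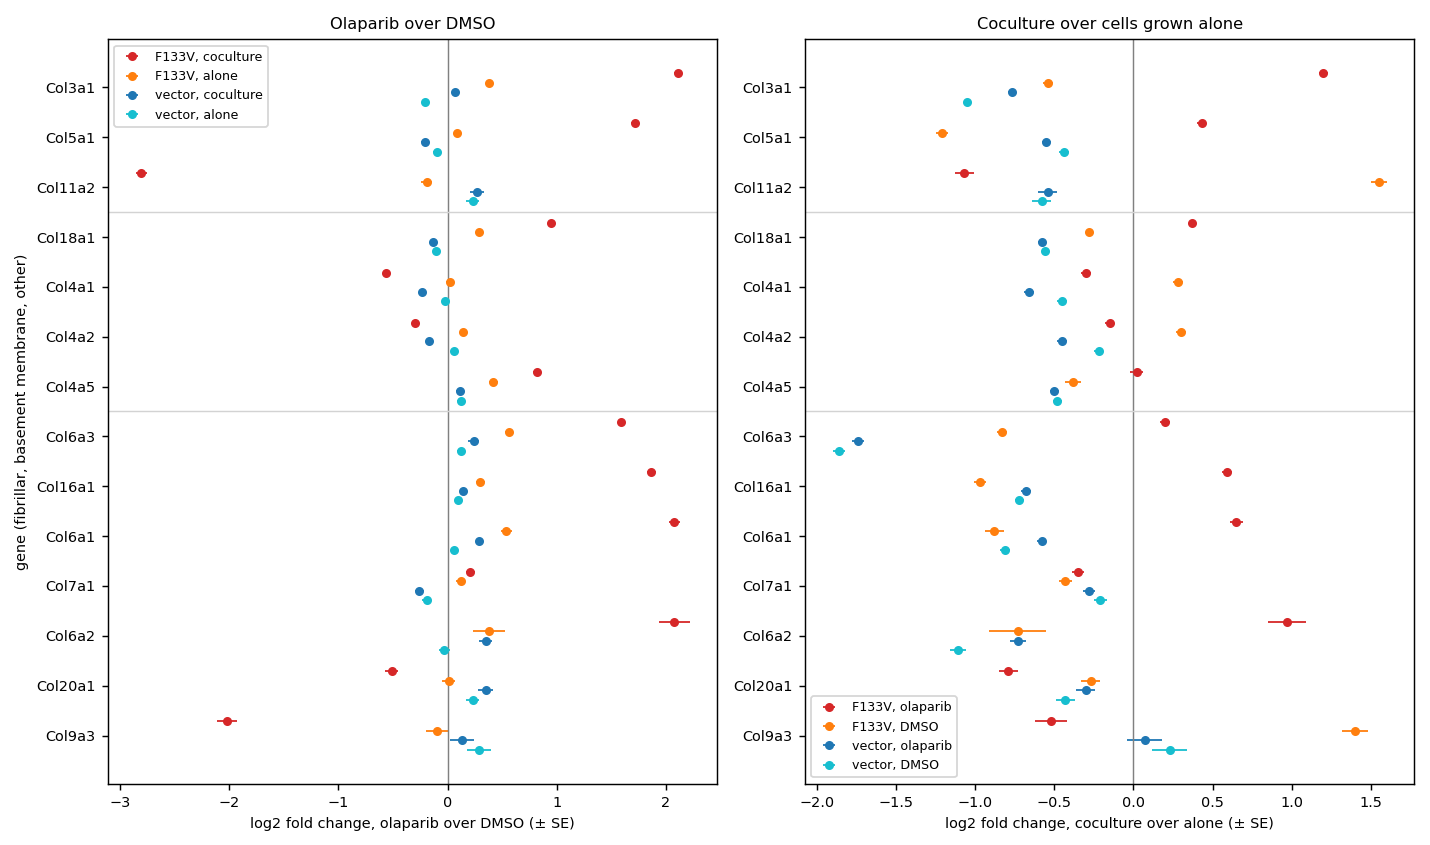
Log2 fold changes ± SE of those 14 collagens for olaparib over DMSO (left) and for coculture over cells alone (right), each in 4 settings (rows from top: fibrillar, basement membrane, other). F133V cocultures reach from -2.81 to 2.11 in the left panel, while vector points stay between -0.26 and 0.35 there; in the right panel the vector points lie left of 0 except those of Col9a3.

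Differences of differences were tested as interactions, which share libraries with each other and with the comparisons above. Between genotypes, the effect of coculture with DMSO differed for 12 of 28 genes (9 higher, 3 lower in F133V cells; 62.7% of all genes tested, 30.2% and 32.5%), and scaling by library size alone gave 9 higher and 5 lower. The effect of olaparib alone differed for 12 (9 and 3; 24.2%, 13.3% and 10.9%), with 12 and 2 under library size alone. The effect of olaparib in coculture differed for 20 (12 and 8; 67.4%, 35.4% and 32%). Within F133V cells the effect of olaparib differed between coculture and cells alone for 17 (9 and 8; 64.5%, 32.9% and 31.5%). Set against the shares of all genes, the collagen count was low for coculture with DMSO, high for olaparib alone, and close to the share of all genes for the 2 tests of olaparib in coculture. For Col3a1 the term was 0.51 ± 0.04 for genotype and coculture, 2.04 ± 0.04 for genotype and olaparib in coculture, and 1.74 ± 0.04 for coculture and olaparib in F133V cells. For Col11a2 the same terms were 2.13 ± 0.08, -3.08 ± 0.08 and -2.63 ± 0.07, so that the fibrillar pair had 1 direction in the first and opposite directions in the others.

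In macrophages, 13 collagen genes could be tested. Col20a1 averaged 8.39 to 15.9 CPM over the macrophage groups, against 9.74 to 19.1 CPM over the cancer groups. Col18a1 averaged 6.79 to 10.5 CPM over the macrophage groups, against 429 to 826 CPM over the cancer groups. The highest level in macrophages was that of Col4a5. That gene had 52.3, 55.1 and 55 CPM in macrophages with F133V partners and olaparib, 58.2, 60.3 and 57.1 CPM with F133V partners and DMSO, 54.1, 56.6 and 52.8 CPM with vector partners and olaparib, and 68, 64.7 and 64.5 CPM with vector partners and DMSO. On CPM scaled separately for each cell type, every macrophage library lay above every F133V cancer library for Col4a5 (at most 40.8 CPM) and below every vector cancer library (at least 70.9 CPM). Col15a1, a basement membrane collagen, averaged 2.25 to 3.75 CPM in macrophage groups but had 2 counts over all 24 cancer libraries. Col3a1 and Col6a3, abundant in cancer cells, averaged at most 0.36 and 0.177 CPM in macrophages.

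With DMSO, macrophages facing F133V cells differed from those facing vector cells in 9 of 13 genes, 1 higher and 8 lower (53.6% of 14262 genes tested, 25.5% and 28.1%). Col7a1 had 2.9, 3 and 2.93 CPM with F133V partners, against 5.22, 5.71 and 5.76 CPM with vector partners (-0.92 ± 0.10, adjusted p = 7.5e-11), and Col20a1 had 8.64, 8.34 and 8.19 CPM against 12.8, 12.1 and 12.6 CPM (-0.58 ± 0.07). Col4a1 was the 1 higher gene, on 33, 46 and 24 counts with F133V partners and 8, 5 and 3 counts with vector partners; its level in F133V cells of that coculture was 304, 314 and 300 CPM, and the part of transcripts carried over was not tested. With olaparib 5 genes passed (4 higher, 1 lower; 35.2%, 17.6% each way), among them Col7a1 at 9.02, 8.38 and 8.56 CPM with F133V partners and 4.52, 4.47 and 4.69 CPM with vector partners (0.92 ± 0.09, adjusted p = 1.6e-12). DESeq2 gave 3 higher and 0 lower there, and scaling by library size alone 4 higher and 0 lower.

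Olaparib against DMSO in macrophages with F133V partners changed 11 of 13 genes (8 higher, 3 lower; 57.5%, 28.5% and 29%), with Col7a1 up by 1.55 ± 0.09 (adjusted p = 4.0e-20) and Col20a1 by 0.93 ± 0.06. With vector partners 6 passed (1 higher, 5 lower; 28.4%, 14% and 14.5%), with Col7a1 at -0.29 ± 0.10 and Col20a1 at -0.28 ± 0.07. That call of Col7a1 (adjusted p = 0.019) was lost with no filter, in DESeq2 and without any 1 of 4 libraries, with adjusted p of 0.052 to 0.084. Whether these effects differ between partners was not tested.

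Collagen chains need enzymes and chaperones of the endoplasmic reticulum, then processing and crosslinking outside the cell, and cells sense them through receptors. Of 25 genes for chain modification, folding and export, 22 were tested, and in F133V against vector cells 6 were higher and 15 lower alone with DMSO and 4 higher and 15 lower in coculture with DMSO (67.7% and 79.5% of all genes tested passed). The medians were -0.33 and -0.34. With olaparib 6 were higher and 14 lower alone (67.4% of all genes tested), but 13 were higher and 5 lower in coculture (60%), with medians of -0.36 and 0.20. Colgalt1, which adds galactose to hydroxylysine, had 69.5, 69.9 and 67.6 CPM in F133V cells alone with DMSO, against 148, 145 and 142 CPM in vector cells (-1.07 ± 0.03). P3h1, a prolyl 3-hydroxylase, had 48.1, 49.8 and 48.3 CPM in the same F133V cells, against 83.1, 82.4 and 77.3 CPM in vector cells (-0.73 ± 0.03). Plod2, the lysyl hydroxylase of telopeptides, had 28.2, 28.9 and 30.4 CPM in those F133V cells, against 93.1, 96.1 and 98.1 CPM in vector cells (-1.72 ± 0.04), but 0.02 ± 0.03 in coculture with DMSO (adjusted p = 0.62). P4ha2, a prolyl 4-hydroxylase subunit, was lower by -0.80 ± 0.02 alone and -0.20 ± 0.02 in coculture. Creb3l2, a transcription factor of secretory cargo, was lower in coculture with DMSO by -1.68 ± 0.04. P3h4 was lower there by -1.41 ± 0.04, as was Crtap of the 3-hydroxylation complex (-1.41 ± 0.04). With olaparib in F133V cocultures, 18 of the 22 rose and 2 fell against DMSO (76.3% of all genes tested passed), Creb3l2 by 1.89 ± 0.04 and P3h4 by 1.38 ± 0.04. The median was 0.68 in that pair, against 0.02 over all genes tested.

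Of 16 genes for processing and crosslinking outside the cell, 9 were tested, with 1 higher and 7 lower in F133V cells alone with DMSO and 1 higher and 8 lower in coculture with DMSO (medians -0.99 and -2.03; 67.7% and 79.5% of all genes tested passed). With olaparib 2 were higher and 6 lower alone (67.4%), and 4 were higher and 5 lower in coculture (60%), with medians of -0.61 and -0.87. Pcolce, an enhancer of procollagen C-proteinase, had 85.3, 97 and 96.2 CPM in F133V cocultures with DMSO, against 529, 529 and 526 CPM in vector cocultures (-2.51 ± 0.03, adjusted p = 1.3e-39). Dcn, the small proteoglycan decorin that binds fibrils, had 38.5, 37.7 and 37.1 CPM in F133V cocultures with DMSO, against 228, 242 and 226 CPM in vector cocultures (-2.62 ± 0.04). Adamts14, a procollagen N-proteinase, and Loxl4, a lysyl oxidase, were lower there by -1.57 ± 0.04 and -3.04 ± 0.10. Sparc, a collagen-binding matricellular protein, was the 1 higher gene in the DMSO settings, with 266, 268 and 260 CPM in F133V cells alone with DMSO and 83.8, 81.5 and 79.8 CPM in vector cells (1.70 ± 0.03). With olaparib in F133V cocultures 8 of the 9 rose against DMSO and 0 fell (76.3% of all genes tested passed, 39.3% higher and 37% lower), Pcolce to 295, 304 and 291 CPM. The remaining gene did not pass.

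Of 9 collagen receptors, 6 were tested and all 6 differed by genotype in both DMSO settings, 3 in each direction, where 67.7% and 79.5% of all genes tested passed alone and in coculture. Ddr2, a receptor tyrosine kinase for fibrillar collagen, had 1462, 1459 and 1444 CPM in F133V cocultures with DMSO, against 826, 817 and 831 CPM in vector cocultures (0.82 ± 0.02, adjusted p = 4.5e-31). Ddr1, its relative that also binds type IV collagen, had 37.3, 39.3 and 38.5 CPM in F133V cocultures, against 72.6, 78.2 and 75.5 CPM in vector ones (-0.98 ± 0.03). Mrc2, an endocytic receptor that takes up collagen fragments, was lower by -1.17 ± 0.03 and the integrin subunit Itga1 by -1.66 ± 0.11. Mrc2 then rose with olaparib in F133V cocultures by 1.31 ± 0.03, where 3 receptors rose and 2 fell (39.3% and 37% of all genes tested).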

How the data were processed

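RNA was measured in 36 libraries, 24 of cancer cells and 12 of macrophages. The authors deposited raw counts per gene for each library, whole numbers with no normalization. Per the labels, total RNA was extracted with TRIzol. Per the submitters' processing notes, STAR, TopHat, HTSeq and DESeq2 were named with the build GRCm38; which tool did what, with which version and strand setting, was not given in the sources used here, so overlapping genes on opposite strands cannot be told apart. Rows that name no gene were left out of library sizes: reads with no feature were 17.1% to 21.5%, ambiguous reads 1.2% to 1.36% and reads not unique 5.48% to 7.18% of each library's total. For 3 macrophage libraries the title leaves out the partner, and their group entry was used.

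Counts were tested with edgeR 4.0.16 (R 4.3.3) by the quasi-likelihood test, with TMM scaling, genes kept by filterByExpr at a minimum count of 10, and a model of group means per cell type. P-values were adjusted by Benjamini-Hochberg over all genes tested, at a threshold of 0.05, and the SE is the log2 fold change divided by the root of F. The biological coefficient of variation was 2.61% in cancer cells and 1.81% in macrophages, and the scaling factors were 0.849 to 1.06. Levels per kb use the union of exons in GENCODE M21, so they depend on that annotation. Promoters and the 22-base overlap are from RefSeq GRCm38.p6. The scripts were tested on simulated data.

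The collagen genes, their classes and the other lists were chosen with earlier results of these data known. Values per library are given for collagens reaching 10 CPM in a cancer group, group means for those between 1 and 10 CPM, and names for the rest. From each list of processing or receptor genes, up to 4 genes with the smallest adjusted p by genotype alone and up to 4 in coculture were named, both with DMSO. Other scaling, no filter, DESeq2 1.42.0, fits of the compared groups only, a replicate block and leaving out each library were alternatives. Removing length and GC trends and leaving out 2 vector libraries were added after seeing the data.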

Additional observations from a re-analysis of the deposited data

Results flagged for a closer look

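Each result here is given because an effect differed between settings by a test of the difference itself. The counts are of collagen genes tested, 28 in all, with the share of all genes tested that passed the same test beside them. Each named gene passed the threshold in both settings in opposite directions with all libraries, and the calls that alternatives ended are named. The tests share libraries.

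The effect of coculture with DMSO differed between F133V and vector cells for 12 genes (62.7% of all genes tested). Col11a2 differed by 2.13 ± 0.08 on the log2 scale (1.55 in F133V cells, -0.58 in vector cells). Col4a1 differed by 0.73 ± 0.04 (0.28 and -0.45) and Col4a2 by 0.51 ± 0.04 (0.30 and -0.22).

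The effect of olaparib on cells alone differed between genotypes for 12 genes (24.2%). Col3a1 differed by 0.58 ± 0.04 (0.38 in F133V cells, -0.21 in vector cells), Col18a1 by 0.40 ± 0.03 (0.29 and -0.11) and Col7a1 by 0.32 ± 0.06 (0.12 and -0.19). Col11a2 differed by -0.42 ± 0.08 (-0.19 and 0.23). Col5a1 differed by 0.19 ± 0.05 (0.09 and -0.10), and by 0.15 with an adjusted p of 0.075 in edgeR without vector libraries 1 and 2 of cells alone with DMSO. In edgeR, the change in F133V cells was lost for Col11a2 under library size alone (adjusted p = 0.083) and without 1 library (0.064), and for Col7a1 without either of 2 libraries (0.052 and 0.066). For Col5a1 it was lost without any 1 of 4 libraries (0.056 to 0.34), and its change in vector cells likewise (0.057 to 0.071). The call of Col5a1 in F133V cells was also lost in edgeR with no filter (0.056), with the compared groups only (0.18) and with length and GC trends removed (0.053). Its call in vector cells was also lost without vector libraries 1 and 2 of cells alone with DMSO (0.44). The change of Col18a1 in vector cells was lost without those 2 vector libraries (0.053).

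The effect of olaparib in coculture differed between genotypes for 20 genes (67.4%). Col5a1 differed by 1.94 ± 0.05 (1.72 in F133V cells, -0.21 in vector cells), Col18a1 by 1.07 ± 0.03 (0.95 and -0.13) and Col7a1 by 0.47 ± 0.06 (0.21 and -0.26). Col11a2 differed by -3.08 ± 0.08 (-2.81 and 0.27) and Col20a1 by -0.86 ± 0.09 (-0.51 and 0.35).

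Within F133V cells the effect of olaparib differed between coculture and cells alone for 17 genes (64.5%). Col4a2 differed by -0.44 ± 0.04 (-0.30 in coculture, 0.14 alone).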

How the results depend on the processing

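Of 3730 values of named genes under an alternative, over 256 results, 3610 kept their direction and their side of the threshold, 90 kept the direction but missed the threshold, 29 passed it newly and 1 reversed. The reversed value was that of Col4a2 for genotype and olaparib in coculture, 0.08 (adjusted p = 0.1 in edgeR) under library size alone and -0.13 with TMM, and the cause was not tested. That scaling moved the median of all genes by 0.203 for the same term. The shift was -0.253 for F133V against vector cocultures with DMSO and -0.208 for F133V coculture with DMSO against cells alone. Scaling by library size alone also moved the summed collagen CPM, to 1250 in F133V cocultures with DMSO, 1983 in F133V cells alone with olaparib, 1595 and 1628 in vector cocultures with olaparib and with DMSO, 2526 and 2680 in vector cells alone with olaparib and with DMSO, 92.5 in macrophages with F133V partners and DMSO and 89.3 in macrophages with vector partners and olaparib. For macrophage partners with olaparib DESeq2 called 3 collagens in place of 5. Leaving out 1 library gave 23 to 25 genes for genotype alone with DMSO (24 with all libraries), 9 to 11 for olaparib in vector cells alone (12), 8 to 11 for olaparib in F133V cells alone (11), 19 to 21 for olaparib in F133V cocultures (21) and 3 to 5 for macrophage partners with olaparib (5). The call of Col9a3 for olaparib in vector cells alone (0.29) was lost without 5 of the 6 libraries, each left out in turn, with adjusted p in edgeR of 0.059 to 0.2, and was kept without vector library 2 with DMSO (0.42, adjusted p = 0.0078). With all libraries it was lost in edgeR under library size alone (adjusted p = 0.058), with no filter (0.066) and with length and GC trends removed (0.05). It was also lost in DESeq2 (adjusted p = 0.061).

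Same-numbered libraries did not deviate together by this measure: in 0 of 28 pairs of cancer groups and 0 of 6 pairs of macrophage groups were all correlations over 0.1. A weak shared effect could stay under that bound, and a common preparation was not tested. With the replicate block, 24 collagens passed for genotype alone with DMSO, 22 in coculture with DMSO and 20 for olaparib in F133V cocultures, and no count moved by over 1.5 times. Depth limits the 25 genes under 1 CPM.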
